A study of Mus musculus with 6 samples.

Results

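The genes described here encode the proteins of the cytosolic ribosome. They were taken by symbol from the deposited gene tables: Rpl or Rps followed by a number, with at most one closing a or x, together with Rplp0, Rplp1, Rplp2 and Rpsa. This rule found 76 of the 24147 genes listed, 46 of the large subunit and 30 of the small one, and left out paralogues named -like and the S6 kinases. RNA was sequenced from the lens capsule with its attached lens epithelial cells of wild-type C57BL/6 mice 2 months old, whose lens fiber cells had been surgically removed by way of an opening in the cornea. Tissue was collected 24 h after the operation (3 libraries) or directly after it (0 h, 3 libraries), and all animals had been operated on. The operation is a mouse model of cataract surgery, and the comparison asks how the cells left on the capsule differ a day later. The series describes biological triplicates, but how many animals or eyes went into each library is not stated.

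The cytosolic ribosome is built from ribosomal RNA and one copy of most ribosomal proteins, so the cell needs these proteins in near-equal numbers. Their mRNAs are among the most abundant in growing cells. Most of them begin with a run of pyrimidines at the 5′ end, the terminal oligopyrimidine (TOP) motif. Through this motif the kinase mTOR and the RNA-binding protein LARP1 set, in mammalian cells, how far these mRNAs are translated, largely without a change in their level. The transcription factor MYC raises the output of ribosome components in dividing cells. The lens epithelium is a slowly renewing sheet, and after cataract surgery the cells left on the capsule begin to repair the wound.

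The sequences below show the start regions of members that the results turn on, so that the pyrimidine tract can be seen beside the values that follow. They are from RefSeq on GRCm38.p6, 5′ to 3′ on the strand of the gene, 30 bases each, and capitals mark the tract, a C followed by at least 7 bases that are C or T, which makes 8 bases or more.
Rps2 (chr17:24720083-24720112, + strand): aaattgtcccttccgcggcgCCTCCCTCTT
Rpl18 (chr7:45718064-45718093, + strand): gcaggccgCTCTTTCCCCgcccactccggc
Rpl41 (chr10:128549119-128549148, - strand): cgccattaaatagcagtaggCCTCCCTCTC
Rps6 (chr4:86857347-86857376, - strand): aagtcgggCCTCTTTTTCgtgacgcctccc
Rpl5 (chr5:107900500-107900529, + strand): tacagccaCTCTTTCTCacgtcgcttgcgt
Rpl26 (chr11:68901581-68901610, + strand): gtgtagttCTCTTTCCTTTTgcggccatcg
Rps27 (chr3:90213629-90213658, - strand): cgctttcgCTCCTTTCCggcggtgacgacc
For members in which no such tract was found, the 30 bases around the RefSeq start are shown. Runs shorter than 8 bases were not counted, so these members may still carry a TOP motif.
Rpl22 (chr4:152324421-152324450, + strand): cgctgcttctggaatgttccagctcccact
Rplp0 (chr5:115559452-115559481, + strand): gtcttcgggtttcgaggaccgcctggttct
Rpsa (chr9:120127751-120127780, + strand): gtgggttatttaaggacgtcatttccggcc

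Promoter entries whose start equalled the gene start in the deposited tables were found for 46 members. Between 30 bases before and 50 bases after the start, 35 of the 46 (76.1%) held the tract on the strand of the gene, against 3122 of 13645 genes of all kinds (22.9%). On the opposite strand the shares were 15.2% of members and 24.9% of all genes. RefSeq starts need not be the starts used in these cells, and a tract cut by the end of the window is shown as far as it goes, as in Rps2 and Rpl41. The tract was not required to lie at the 5′ end. From the RefSeq start it began at position 41 in Rps2 and Rpl41, 2 in Rpl18, -1 in Rps6 and -20 in Rpl5. The median log2 fold change (24 h over 0 h) was 0.15 for the 32 tested members with a tract and 0.26 for the 11 without one. These groups need not be mRNAs with and without a TOP motif.

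The 6 libraries held 8069314 to 10862573 counts summed over genes. A floor of 3 counts stood for 0.276 to 0.372 CPM (counts scaled to the library total), counting error only. Apart from this floor, the CPM values given here also carry the TMM scaling of the main fit. Principal component 1 (65.8% of the variance) set the 24 h libraries apart from the 0 h ones. Markers of the lens were present in every library. Summed over 12 lens epithelial markers the level was 54199 to 67753 CPM at 24 h and 87066 to 146376 CPM at 0 h, and over 12 fiber markers 6475 to 7233 CPM at 24 h and 15265 to 26148 CPM at 0 h. The epithelial list includes the alpha-crystallin genes Cryaa and Cryab. Their part in its sum was not tested, so the sum need not measure epithelial cells alone. The sum of 13 neutrophil markers was 118 to 225 CPM at 24 h and 9.02 to 17.6 CPM at 0 h. The sums of 12 photoreceptor markers (1188 to 5362 CPM at 24 h, 2166 to 6759 CPM at 0 h), of 15 monocyte and macrophage markers (123 to 244 CPM, 85.4 to 198 CPM) and of 11 markers of the ciliary body, iris and pigment epithelium (175 to 1234 CPM, 219 to 434 CPM) overlapped between the times. By the edgeR test described below, which called 15.2% of all tested genes higher and 13.0% lower, the calls were 7 lower of 12 lens epithelial markers, 10 lower of 12 fiber markers and 7 higher of 8 neutrophil markers tested. They were 3 higher and 4 lower of 15 monocyte and macrophage markers, 3 higher and 3 lower of 11 markers of the ciliary body, iris and pigment epithelium, and 0 of 12 photoreceptor markers. None of the markers found was at 0 in all 6 libraries. Rn45s, the precursor of ribosomal RNA, reached 159332 CPM in 24 h replicate 1, against 46085 and 48911 CPM in the other 24 h libraries and 26531 to 32462 CPM at 0 h. The part of these differences in the values below was not tested.

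The ribosomal protein genes were among the most abundant genes per unit length. The median over the 72 members with usable counts was 216 RPKM (counts scaled to gene length and library total, the authors' deposited unit), a level that 0.872% of the 18703 detected genes reached or passed. The 5 highest members by mean RPKM over the 6 libraries were Rpl41 (599 RPKM), Rpl7 (582 RPKM), Rps2 (558 RPKM), Rplp0 (551 RPKM) and Rplp1 (543 RPKM). Of the 72, 58 lay between 100 and 500 RPKM. The lowest of them was Rps15a, a small-subunit protein gene, at 13.8 RPKM. Its deposited length is 5134 bases, against a median of 718 bases for the tested members, and its counts of 480 to 861 per library were within the range of other members. Rpl22 came next at 39.9 RPKM with a length of 2497 bases.

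Of the 76 members, 4 were almost empty: Rpl26, Rpl30, Rpl34 and Rps27, all of which encode core ribosomal proteins. Rpl26 had 0 counts in every library, which allows up to 0.276 to 0.372 CPM per library. Rpl30 had 0, 3 and 2 counts in replicates 1 to 3 at 24 h and 4, 3 and 3 counts at 0 h. Rpl34 had 1, 14 and 10 counts at 24 h and 11, 6 and 16 counts at 0 h. Rps27, a zinc-finger protein of the small subunit, had 1, 6 and 5 counts at 24 h and 1, 3 and 0 counts at 0 h. None of the other 72 members had fewer than 126 counts in any library. Each of these near-empty members is covered over most of its span by another gene of the deposited tables: Rpl26 by Gm15772 (99.2% of its span), Rpl30 by Gm12191 (98.4%), Rpl34 by Rpl34-ps1 (97.8%) and Rps27 by Rps27rt (99.9%). Overlap of spans alone is not particular to them. Rpl19, Rpl23, Rpl23a, Rpl27, Rpl35, Rpl38 and Rps15 lie wholly within the span of a small RNA gene. The listed length of that gene is at most 171 bases, and these members had at least 305 counts in every library. Mir684-1, listed at 170 bases, covers members from Rpl23a (start 78180936) to Rpl38 (start 114668543) on chromosome 11. Its span thus takes in far more than its own bases. Whether the small RNA genes meet exons of these members was not tested, so they need not be a like case to the near-empty ones. The genes over the near-empty members are longer, at 345 to 520 bases. Gm15772, Rpl34-ps1 and Rps27rt also had 0 counts in all 6 libraries, and Gm12191 had 45 in all. How the counting treated reads that overlap 2 genes was not tested, so the low values of these members cannot be read as low mRNA. They did not pass the low-count filter and no fold is given for them.

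**Figure D1:**
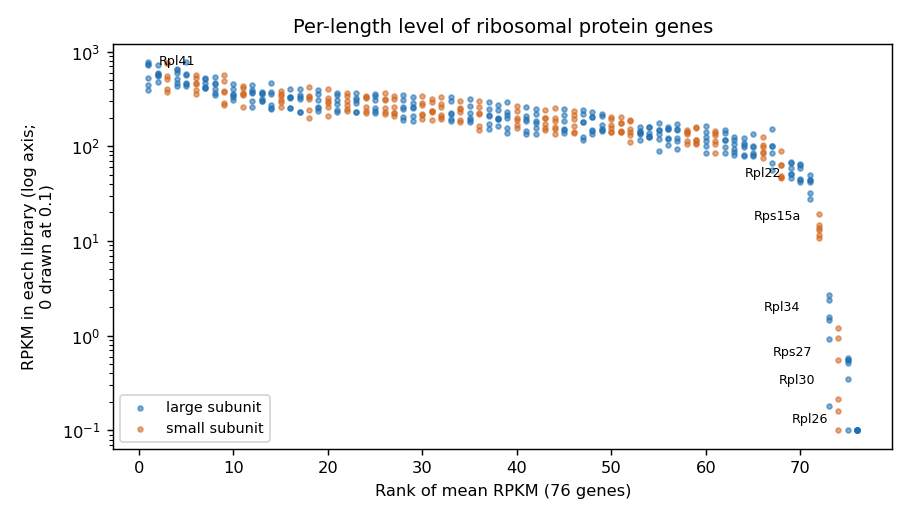
Deposited RPKM of the 76 ribosomal protein genes in each of the 6 libraries (log axis, 1 point per library, values of 0 drawn at 0.1) against the rank of the mean. The curve is flat over most members, and Rpl26, Rpl30, Rpl34 and Rps27 stand far below it.

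Ribosomal protein genes have many processed pseudogenes, which limits how surely a read can be placed. Of all windows of 50 bases in the GENCODE M21 protein-coding transcripts of a member, a median of 38.4% also occurred in a transcript of another gene, and 75 of the 76 members shared at least 1 window with an annotated pseudogene. The share passed 50% in 26 members, among them Rpl5 (85.4%), Rps6 (84.6%), Rpl10 (73.7%), Rpl3 (67.1%), Rplp1 (60.0%) and Rps2 (56.4%), and was 5.16% in Rpl22. Counts of members with a high share are therefore uncertain in level. The 25 tested members above 50% had a median level of 295 RPKM and the other 47 a median of 185 RPKM. Their median log2 fold changes were 0.19 and 0.14.

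None of the 72 tested members passed the test between 24 h and 0 h. By edgeR's quasi-likelihood test over 13956 genes, 0 members were called higher and 0 lower at an adjusted p under 0.05, where 15.2% of all tested genes were called higher, 13.0% lower and 28.2% in either direction. The lowest adjusted p of a member was 0.0678. At an unadjusted p under 0.05 there were 7 members (6 higher and 1 lower), where 39.9% of all tested genes stood. Limma-voom also called 0 members, with 10 at an unadjusted p under 0.05. Its share of all genes called was not taken, so these counts have no background beside them. DESeq2 called 1, Rps2 (adjusted p = 0.0196), where it called 16.6% of all genes higher. It put 9 members at an unadjusted p under 0.05. The share of all genes at that unadjusted p was taken for the main edgeR fit alone. In whole tissue, fewer cells of a type and less RNA per cell cannot be told apart, and CPM values are relative to the other mRNAs of the library.

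The intervals say how large a change was left possible. The median standard error of a member's log2 fold change was 0.19. For 70 of the 72 members the 95% interval lay within a 2-fold change both ways, and for 25 within a 1.5-fold change. It reached past 1.5-fold on the upper side alone in 41 members and on the lower side alone in 6. The highest upper end was 1.12 on the log2 scale (Rpl36, chosen after its values were seen) and the lowest lower end was -0.89 (Rpl22).

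The members leaned towards higher values at 24 h by a small amount. Their median log2 fold change was 0.16, a 1.12-fold difference, and the median of all tested genes was -0.027. The fold change was above 0 in 53 of 72 members (73.6%) and in 48.3% of all tested genes. The members were also close to each other: the middle 50% of their log2 fold changes spanned 0.27, while that of the 7430 tested genes with at least 20 CPM spanned 0.75. The median was 0.39 without 0 h replicate 1, 0.28 without 24 h replicate 1, 0.079 without 24 h replicate 2 and 0.043 without 0 h replicate 2.

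**Figure D2:**
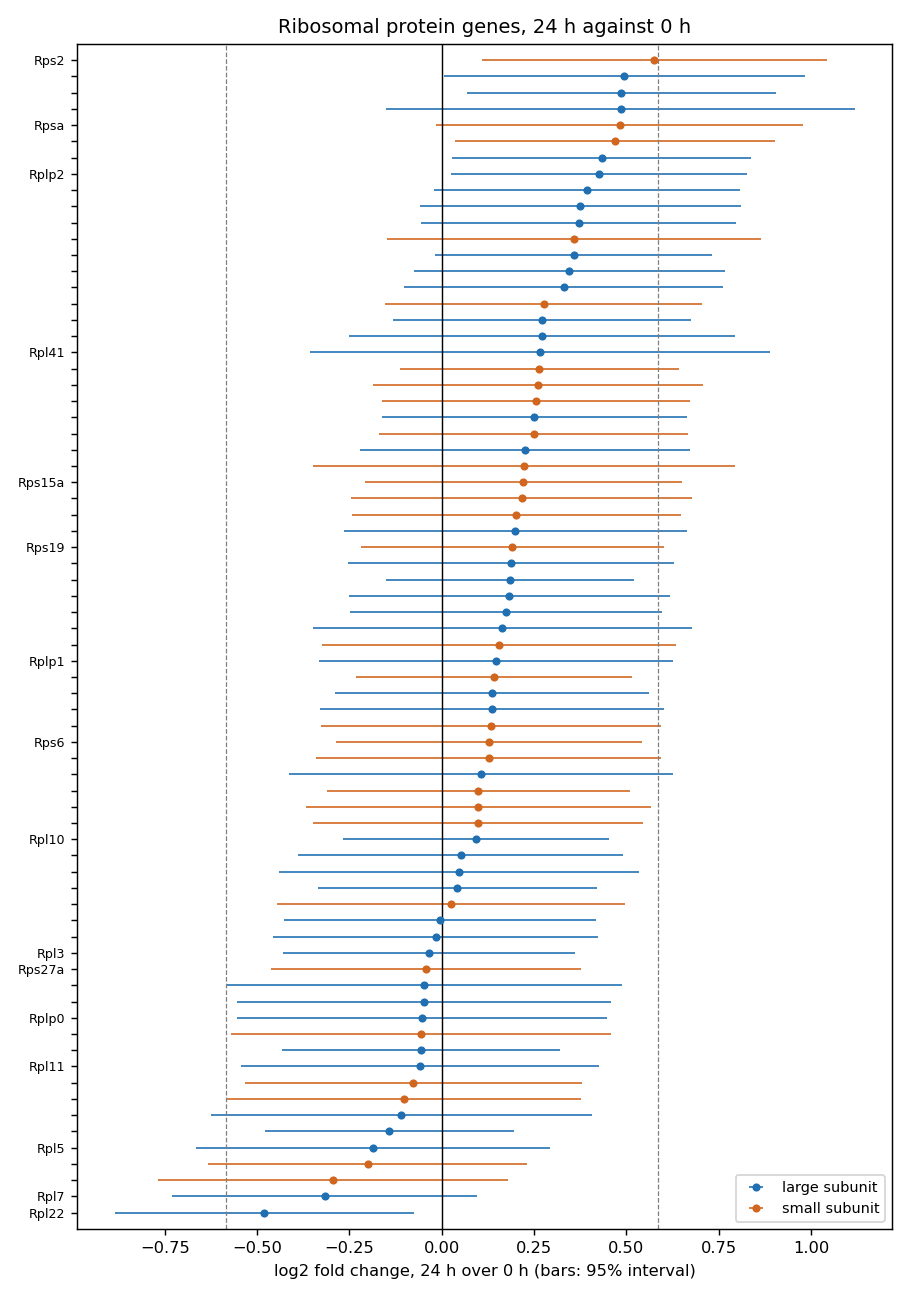
Log2 fold change (24 h over 0 h) of the 72 tested members with 95% intervals, ordered by size and coloured by subunit, with names for members picked by the naming rule; dashed lines mark a 1.5-fold change each way. The values run from -0.48 (Rpl22) to 0.57 (Rps2), and most intervals cross 0.

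Libraries of the same time differed as much as the times did, and nearly all members moved with the library. The TMM-scaled CPM of the 72 members summed to 13527, 16591 and 15559 in replicates 1 to 3 at 24 h (15226 ± 1559, SD, n = 3) and to 17240, 11326 and 12748 at 0 h (13771 ± 3087, SD, n = 3). The library with the highest sum was thus 0 h replicate 1 and the one with the lowest was 0 h replicate 2, so the times overlap. The highest value fell in 24 h replicate 2 for 31 members and in 0 h replicate 1 for 36, and 49 were lowest in 0 h replicate 2. As a share of all gene counts the members held 1.31%, 1.81% and 1.59% at 24 h (1.57% ± 0.252, n = 3) and 1.58%, 1.20% and 1.20% at 0 h (1.33% ± 0.222, n = 3). Outside Rn45s the shares were 1.55%, 1.91% and 1.67% at 24 h and 1.62%, 1.25% and 1.23% at 0 h. As a share of all RPKM, which counts short genes more, the members held 4.15%, 5.33% and 4.64% at 24 h and 3.93%, 3.48% and 3.34% at 0 h. On this last measure every 24 h library lay above every 0 h library (log2 ratio 0.39, against 0.24 for the share of counts). Like the member sum, the summed level of lens epithelial markers, Cryaa and Cryab included, was highest in 0 h replicate 1 and, at 0 h, lowest in replicate 2. Fiber markers had the same order at 0 h (26148, 15265 and 21434 CPM in replicates 1 to 3). At 24 h the epithelial sum was 54199, 58116 and 67753 CPM, highest in replicate 3, while the member sum was highest in replicate 2. The part of the lens cell mix in the member levels was not tested.

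One library decides the count of calls. Without 0 h replicate 1, 15 of 73 tested members were called higher at 24 h, where 13.1% of all tested genes were, and 0 were called lower. They included Rpl18, Rpl24, Rpl29, Rpl41 and Rplp2 of the large subunit and Rps2, Rps16 and Rpsa of the small one. Leaving out any other library gave 0 higher members. Without 24 h replicate 2, Rpl22 was called lower, where 9.81% of all tested genes were.

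**Figure D3:**
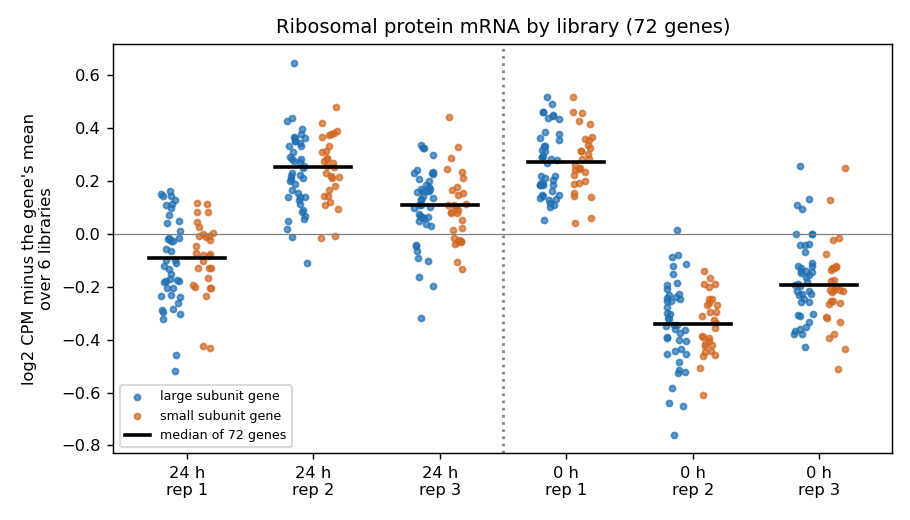
Log2 CPM of each of the 72 tested members in each library, minus the member's mean over the 6 libraries; bars are medians over members. Members of both subunits sit high together in 24 h replicate 2 and 0 h replicate 1 and low together in 0 h replicate 2.

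Each library was also scaled to the members' summed counts, which centres the members and takes out what they share within a library by construction, so it gives only their differences from each other. On this scale the log2 fold changes ran from -0.65 (Rpl22) to 0.43 (Rps2). In an edgeR fit of all genes on this scale, 0 members and 18.6% of all tested genes were called (8.08% higher and 10.5% lower), 1 member had an unadjusted p under 0.05, and the lowest adjusted p of a member was 0.0534 (Rpl22, log2 fold change -0.65). This scaling moved the median of all tested genes to -0.20.

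Among small-subunit members, Rpsa and Rps2 had the highest mean CPM. Rps2, which sits at the entry of the mRNA channel, had 570.1, 693 and 731 CPM in replicates 1 to 3 at 24 h, against 555, 353 and 432 CPM at 0 h. All 24 h libraries were above all 0 h libraries, and the log2 fold change was 0.57 ± 0.20 (SE; 95% interval 0.11 to 1.04, adjusted p = 0.0678). Rps2 was called with DESeq2, with library totals only, with the gene-length trend removed, and without 0 h replicate 1. Its adjusted p spanned 0.0196 to 0.192 over the 17 alternatives that test against no change. Rpsa, which also gives rise to the laminin receptor, had 710.3, 951 and 892 CPM at 24 h, against 783, 499.98 and 547 CPM at 0 h, and the times overlapped. Its log2 fold change was 0.48 ± 0.22 (SE, adjusted p = 0.136).

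Rps6, the target of the S6 kinases, had 440.4, 483 and 480.1 CPM at 24 h and 510.2, 338 and 437 CPM at 0 h. The 0 h values enclosed those of 24 h, and the log2 fold change was 0.13 (95% interval -0.29 to 0.54). Rps19, mutated in some people with Diamond-Blackfan anemia, averaged 64.3 ± 8.25 CPM at 24 h and 56.3 ± 11.8 CPM at 0 h (SD, n = 3 each). Rps27a, made as a fusion with ubiquitin, averaged 135 ± 17.7 CPM at 24 h and 139 ± 30.5 CPM at 0 h. Rps15a averaged 76.3 ± 13.1 CPM at 24 h and 65.4 ± 13.9 CPM at 0 h. For these 3 genes the difference was smaller than the SD at 0 h. Rps16, chosen after its values were seen, averaged 155 ± 14.4 CPM at 24 h and 112 ± 28.5 CPM at 0 h (adjusted p = 0.101), and was called with the gene-length trend removed and without 0 h replicate 1.

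The ribosomal stalk, which recruits translation factors, is made of Rplp0 and pairs of Rplp1 and Rplp2. Rplp2 (chromosome 7, 141447650 to 141451342, mm10) had 57.0, 66.3 and 61.6 CPM at 24 h, against 54.7, 35.2 and 47.8 CPM at 0 h. All 24 h libraries were above all 0 h libraries, with a log2 fold change of 0.43 ± 0.18 (SE, adjusted p = 0.106). Rplp0, whose protein anchors the others, had 609.6, 735 and 870.3 CPM at 24 h and 953, 603 and 741 CPM at 0 h. Rplp1 had 208, 329 and 263 CPM at 24 h and 290.5, 200.3 and 231 CPM at 0 h. The times overlapped for both, with log2 fold changes of -0.053 (95% interval -0.55 to 0.45) and 0.15 (-0.33 to 0.63). Rplp2 was called with library totals only and without 0 h replicate 1. Its adjusted p spanned 0.0465 to 0.395 over the 17 alternatives that test against no change.

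Rpl22 was the member with the lowest fold change. It binds RNA and is not needed for general protein synthesis in mice, where T cell development depends on it. Rpl22 (chromosome 4, 152324436 to 152334082, mm10) had 71.1, 101 and 78.3 CPM at 24 h, against 134, 98.7 and 117 CPM at 0 h. The times overlapped in 1 library of each, 24 h replicate 2 and 0 h replicate 2. The log2 fold change was -0.48 ± 0.18 (SE; 95% interval -0.89 to -0.076, adjusted p = 0.0763, and from 0.0348 to 0.248 over the 17 alternatives that test against no change). Its paralogue Rpl22l1, whose mRNA is repressed by the Rpl22 protein in mice, was chosen after its values were seen and is not a member. Rpl22l1 had 5.37, 9.03 and 10.3 CPM at 24 h and 5.61, 4.91 and 3.05 CPM at 0 h (log2 fold change 0.86 ± 0.37, SE, adjusted p = 0.116), and the times overlapped.

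Of the other large-subunit members, Rpl5 and Rpl11 form with 5S RNA a particle that can bind Mdm2 and so raise p53. Rpl5 had 300.3, 384 and 302 CPM at 24 h and 486, 319 and 316 CPM at 0 h. Rpl11 had 136, 183 and 180.4 CPM at 24 h and 228, 142 and 150.1 CPM at 0 h. The times overlapped for both, with log2 fold changes of -0.19 (95% interval -0.67 to 0.29) and -0.059 (-0.55 to 0.43). Rpl7 had 458, 500.1 and 503 CPM at 24 h and 732, 496 and 592 CPM at 0 h, a log2 fold change of -0.32 ± 0.18 (SE, adjusted p = 0.234). Its 24 h libraries lay close together at or near the lowest 0 h value. Rpl41, the shortest ribosomal protein, had 241, 315 and 326 CPM at 24 h and 356, 167 and 211 CPM at 0 h. Rpl10, which joins the large subunit late, averaged 376 ± 27.3 CPM at 24 h and 353 ± 46.5 CPM at 0 h. Rpl3, which lies near the peptidyl transferase centre, averaged 450.0 ± 24.3 CPM at 24 h and 461 ± 83.5 CPM at 0 h (SD, n = 3 each).

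Rpl18 and Rpl24, chosen after their values were seen, complete the members whose libraries did not overlap. Rpl18 had 149.9, 183 and 152 CPM at 24 h, against 145, 99.9 and 100.4 CPM at 0 h (log2 fold change 0.49 ± 0.18, SE, adjusted p = 0.0813). Rpl24 had 137, 160.3 and 139.9 CPM at 24 h, against 136, 91.6 and 96.4 CPM at 0 h (log2 fold change 0.43 ± 0.18, SE, adjusted p = 0.104). In both genes 0 h replicate 1 lay just below the lowest 24 h library. Together with Rps2 and Rplp2 these made 4 of 72 members that were higher in every 24 h library, where 22.9% of all tested genes were. No member was lower in every 24 h library, where 21.8% of all tested genes were.

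**Figure D4:**
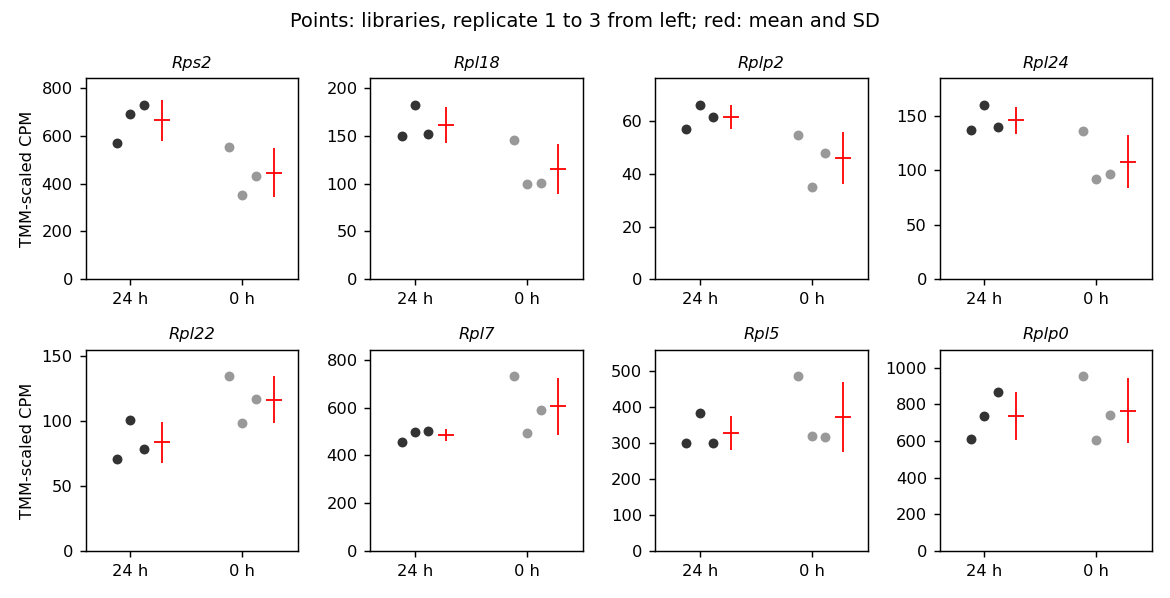
TMM-scaled CPM of 8 members in the 24 h and the 0 h libraries (points, replicates 1 to 3 from left), with mean and SD in red; every axis starts at 0. Rps2, Rpl18, Rplp2 and Rpl24 do not overlap between the times, and in each of them 0 h replicate 1 is the highest 0 h library.

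By subunit, the median log2 fold change was 0.16 for 43 large-subunit members, 30 of them above 0, and 0.15 for 29 small-subunit members, 23 of them above 0. The ratio of summed counts of large-subunit to small-subunit genes was 1.61, 1.59 and 1.59 at 24 h and 1.71, 1.75 and 1.76 at 0 h, so that the times did not overlap. The ratio of summed RPKM was also lower, at 1.51, 1.52 and 1.52 at 24 h and 1.56, 1.57 and 1.59 at 0 h. The direction turned without Rpl7, Rplp0, Rps2 and Rpsa, chosen after their values were seen. The ratio of counts was then 1.87 in each 24 h library and 1.83, 1.87 and 1.87 at 0 h, and that of RPKM 1.61, 1.63 and 1.63 at 24 h and 1.57, 1.57 and 1.59 at 0 h. The median log2 CPM of large-subunit minus that of small-subunit members was 0.29, 0.43 and 0.39 at 24 h and 0.24, 0.31 and 0.39 at 0 h. These ratios have no test, and their direction depends on the measure and on those 4 genes.

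Members are short genes, and gene length moved with time over all genes. Among tested genes of at most 1000 bases, the median log2 fold change was 0.19 for 55 members and 0.037 for 773 other genes. From 1000 to 2000 bases it was 0.078 for 14 members and 0.088 for 2905 other genes. With the length trend of each library removed, the median of the members was 0.11, and 3 members, Rps2, Rpl18 and Rps16, were called higher, where 16.3% of all tested genes were. With library totals in place of TMM factors, 3 members were also called higher, Rps2, Rpl18 and Rplp2, where 16.6% of all tested genes were.

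Genes that serve translation or the making of ribosomes without being members are given by list, each count to be read beside the 15.2% of all tested genes called higher. Against a 1.5-fold change, 7.6% of all tested genes were called higher and 4.51% lower. With 1 library left out, the share called higher was 13.1% without 24 h replicate 1, 12.6% without 24 h replicate 2, 13.3% without 24 h replicate 3, 10.9% without 0 h replicate 2 and 11.7% without 0 h replicate 3. The share called lower was 9.36% without 24 h replicate 1, 11.5% without 24 h replicate 3, 9.04% without 0 h replicate 1, 9.44% without 0 h replicate 2 and 7.26% without 0 h replicate 3. Of 29 initiation factor genes tested, 12 were called higher and 0 lower, with a median log2 fold change of 0.44. Eif1a, which helps the small subunit find the start codon, rose to 83.5 ± 12.3 CPM at 24 h, against 26.0 ± 2.08 CPM at 0 h (SD, n = 3 each), a 3.21-fold rise (adjusted p = 0.000182). The related Eif1ax, chosen after its values were seen, was not called. It averaged 53.9 CPM at 24 h and 45.8 CPM at 0 h (log2 fold change 0.24, adjusted p = 0.465). Eif4a1, the helicase that unwinds the 5′ end of mRNAs, rose 2.25-fold (adjusted p = 0.00166). Without 0 h replicate 2, 7 of these genes were called higher, and against a 1.5-fold change 4.

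Of 21 genes for import and assembly of ribosomal proteins, 9 were called higher and 0 lower, with a median log2 fold change of 0.53. Grwd1, whose yeast relative escorts the Rpl3 protein to the ribosome, rose 3.01-fold, with 24.2 ± 4.74 CPM at 24 h and 8.0 ± 1.75 CPM at 0 h (adjusted p = 0.00199). Pno1, an assembly factor of the small subunit, rose 2.1-fold (adjusted p = 0.00291). Rpl3 itself had a log2 fold change of -0.036 (95% interval -0.43 to 0.36). Without 0 h replicate 2, 5 assembly genes were called higher, and against a 1.5-fold change 4.

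Mitochondrial ribosomal proteins belong to a separate ribosome, and 8 of their 77 genes were called higher and 0 lower, with a median log2 fold change of 0.21. Mrps18b rose 2.67-fold (adjusted p = 0.00384) and Mrpl38 1.71-fold (adjusted p = 0.0106). Leaving out 24 h replicate 2 gave 4, 24 h replicate 3 gave 5, 0 h replicate 2 gave 3 and 0 h replicate 3 gave 5, and the count was 1 against a 1.5-fold change, where Mrpl38 was not called. This share was below the 15.2% of all genes.

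Of 20 other translation genes often grouped with TOP mRNAs, 2 were called higher and 1 lower, with a median log2 fold change of -0.026. Pabpc1, the poly(A)-binding protein, rose 1.65-fold to 776 ± 17.3 CPM at 24 h, against 470.5 ± 84.4 CPM at 0 h (adjusted p = 0.0158). Eef1g, a subunit of the elongation factor complex chosen after its values were seen, was the other higher gene. Eif4a2, a paralogue of Eif4a1, fell 1.5-fold (adjusted p = 0.0160). Pabpc1 was not called without 0 h replicate 2 or 3, Eif4a2 not without 0 h replicate 3 or 24 h replicate 1, and neither against a 1.5-fold change. Leaving out 24 h replicate 2 or 3 gave 1 higher gene of the list, and leaving out 0 h replicate 2 or 3 gave 0.

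Among 26 genes of mTOR, LARP1 and MYC control, 4 were called higher and 5 lower, where 13.0% of all tested genes were called lower. Myc rose 8.26-fold, with 43.6 ± 9.24 CPM at 24 h and 5.25 ± 1.91 CPM at 0 h (adjusted p = 0.000215). Mycn, its relative of developing tissue, fell 2.67-fold, with 10.7 ± 1.41 CPM at 24 h and 28.6 ± 3.28 CPM at 0 h (adjusted p = 0.00104). The other higher genes were Eif4ebp1, Rps6ka3 and Cnbp, and the other lower ones Mtor, Pdcd4, Mlst8 and Tsc1, all named after their values were seen. Leaving out 24 h replicate 1, 0 h replicate 1 or 0 h replicate 3 gave 2 lower genes, and leaving out 0 h replicate 2 gave 3. Of 12 genes of the p53 link and of ribosome quality control, 3 were called higher (Trp53, G3bp1 and Mdm2) and 0 lower. Trp53 rose 2.54-fold (adjusted p = 0.000477) and G3bp1, a stress granule protein, 1.61-fold (adjusted p = 0.00372). G3bp1 was not called against a 1.5-fold change.

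Of 9 tested ribosomal protein genes outside the symbol rule and paralogues, 2 were called higher and 0 lower, both of them paralogues. Rpl36al rose 1.5-fold (adjusted p = 0.0292) and Rpl7l1 1.49-fold (adjusted p = 0.0300). Rpl36al was not called without any one of 0 h replicates 1, 2 or 3 or of 24 h replicates 2 or 3, and Rpl7l1 not when 24 h replicate 2 or either of 0 h replicates 2 and 3 was left out. Neither was called against a 1.5-fold change. Of the genes for core proteins that carry other names, the log2 fold change was 0.16 for Fau, 0.046 for Rps3a1 and 0.45 for Gnb2l1, all chosen after their values were seen, and none of these was called. Rps27l, a p53 target in mammalian cells and a paralogue of the near-empty Rps27, was also chosen after its values were seen. It had 14.1, 20.5 and 24.6 CPM at 24 h and 13.03, 9.42 and 12.4 CPM at 0 h (log2 fold change 0.77, adjusted p = 0.0534), and the times did not overlap. Rps27l was called higher with library totals only (adjusted p = 0.0390), with the gene-length trend removed (0.0370), without 24 h replicate 1 (0.0203) and with DESeq2 (0.0353).

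**Figure D5:**
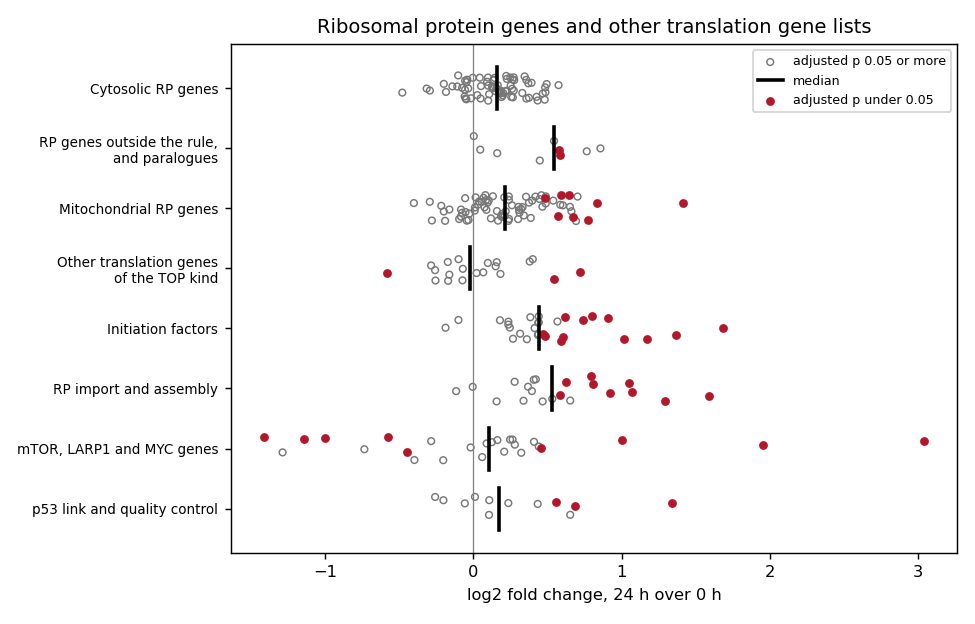
Log2 fold change (24 h over 0 h) of tested genes in the ribosomal protein list and in 7 other lists of translation genes; filled red points passed adjusted p under 0.05 in edgeR, open points did not, and bars are medians. No ribosomal protein gene is filled, while 12 of 29 initiation factors and 9 of 21 assembly genes are.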

How the data were processed

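The authors deposited whole-number read counts and RPKM per gene for each library, with symbol, position and length, per the file headers. The RPKM values equal the deposited count divided by gene length and by the library's summed counts in every row, within a relative tolerance of 1e-06. The submitters' processing notes name Trim Galore 0.4.4, TopHat2 2.1.0, HTSeq 0.6.1p1, edgeR 3.16.5 and mm10. Annotation, strand handling, treatment of reads with several matches and read length are not stated in those notes or in the labels. The labels name TruSeq RNA and also its stranded form.

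All 76 members were read by symbol. Genes were filtered with filterByExpr, leaving 13956 genes and at least 99.82% of each library's counts. Libraries were scaled by TMM and 24 h compared with 0 h with the quasi-likelihood test of edgeR 4.0.16 in R 4.3.3 (two-sided, time as the single term), with Benjamini-Hochberg adjustment over all genes tested. Each standard error was taken as log2 fold change over root F, and 95% intervals rest on them. The settings that scale to the members' summed counts or leave out Rn45s were chosen after seeing the data. Alternatives used limma 3.58.1, DESeq2 1.42.0 and other scalings, filters and library sets. The members and lists were chosen with earlier results of these data known.

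Genes were named by a rule: any called member, the 5 highest and 5 lowest members by RPKM, Rplp0, Rplp1, Rplp2, Rpsa, Rpl5, Rpl11, Rps6, Rpl22, Rpl10, Rps27, Rps27a, Rpl3 and Rps19, and the 2 genes of lowest p in each other list. Some genes are not reported here.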

Additional observations from a re-analysis of the deposited data

How the results depend on the processing

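Across 18 alternatives the number of members called higher was 0 except for 3 with library totals only, 3 with the gene-length trend removed, 1 with DESeq2 and 0 to 15 when 1 library was left out. The number called lower was 0, and 0 to 1 when 1 library was left out. The members' median log2 fold change and the log2 ratio of their share of counts moved by less than the spread between libraries. With library totals only, members near 0 changed sign, to 0.042 (Rpl11), 0.059 (Rpl3), 0.046 (Rplp0) and 0.056 (Rps27a). Scaled to the members' summed counts, a setting chosen after seeing the data, Rpl10 was at -0.067, Rplp1 at -0.016 and Rps6 at -0.018. With 1 library left out the log2 fold change ran from -0.0040 to 0.22 (Rpl10), -0.19 to 0.22 (Rpl11), -0.16 to 0.14 (Rpl3), -0.31 to 0.080 (Rpl5), -0.20 to 0.17 (Rplp0), -0.029 to 0.34 (Rplp1), -0.15 to 0.18 (Rps27a) and -0.021 to 0.31 (Rps6). The causes were not tested.

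For the other lists, scaling to the members' summed counts gave 5 initiation factors, 4 assembly, 1 mitochondrial, 1 quality control, 0 other TOP and 0 outside genes called higher, and 3 regulators and 0 TOP genes lower. Against a 1.5-fold change the counts were 4, 4, 1, 1, 0 and 0 higher, and 1 regulator and 0 TOP genes lower. Library totals gave 3 lower regulators. With 1 library left out, the counts called higher ran from 7 to 13 (initiation), 5 to 10 (assembly), 3 to 7 (mitochondrial), 2 to 4 (quality control), 0 to 2 (TOP) and 0 to 3 (outside the rule), and those called lower from 2 to 5 (regulators) and 0 to 1 (TOP).

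The replicate numbers are shared between the times. Deviations of same-numbered libraries correlated at 0.0866, 0.215 and 0.397 over genes, and those of differently numbered libraries at -0.350 to 0.172. These values do not settle whether the numbers pair the libraries, and the main fit ignores any pairing. With the replicate block 0 members were called, 9 had an unadjusted p under 0.05, and their median log2 fold change was 0.18. With 3 libraries a time, changes of a member under about 1.5-fold were mostly not detectable.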
